A study of Mus musculus with 8 samples.

Results

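Car6, Bhlha15, Scgb1b27 and Aqp5 are 4 genes known from the serous cells of exocrine glands, the cells that make a watery, protein-rich fluid such as saliva or tears. They were chosen by their normalized signals in these same samples, which differed widely between tumours, and they are 4 of the 18193 genes that the array measured with a probe of 1 gene symbol. Every probe annotated to 1 of these symbols alone was used, which gave 5 of the 45037 probes tested, with 2 probes for Bhlha15 and 1 for each of the others. The values that chose the genes are the values described below, so their spread between tumours is a description and carries no test. By the range of its log2 signal over the 8 tumours, Scgb1b27 ranked 2 among all genes, Car6 ranked 39, Bhlha15 ranked 113 and Aqp5 ranked 311.

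The samples were 8 mammary tumours from female mice of genotype MMTV-PyMT (FVB/N-Tg(MMTV-PyVT)634Mul/J), each read on 1 Affymetrix mouse array. In this model the polyoma virus middle T antigen is driven by the mouse mammary tumour virus promoter, which acts chiefly in mammary epithelium but is also active in other secretory glands. All the mice carried the transgene, and no tissue without it was measured. Vehicle was given to the mice of 4 tumours. The mice of the other 4 received SKI-606, the kinase inhibitor bosutinib that blocks Src and Abl, by gavage at 100 mg/kg. The labels give neither the ages of the mice nor the length of treatment. The series title names tumour differentiation as its subject. The protocol speaks of RNA from each mouse without listing the animals. If any samples shared a mouse they were not independent, and n = 4 would count tumours rather than mice.

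Serous acinar cells fold large amounts of secretory protein in the endoplasmic reticulum, store it in granules and release it together with salt and water. Bhlha15, also called Mist1, is a basic helix-loop-helix transcription factor that enlarges this secretory apparatus in acinar cells and also acts in plasma cells. Car6 is the secreted member of the carbonic anhydrase family, enzymes that interconvert carbon dioxide and bicarbonate, and is found in saliva and milk. Scgb1b27 encodes the alpha subunit of salivary androgen-binding protein, a small secreted dimer of the secretoglobin family. Aqp5 is the apical water channel through which acinar cells of salivary and lacrimal glands pass water.

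The genes lie on 4 chromosomes of the mouse reference assembly GRCm38.p6 in RefSeq. Car6 occupies chr4:150187015-150201135 on the minus strand, Bhlha15 chr5:144190286-144194441, Scgb1b27 chr7:34021481-34022881 and Aqp5 chr15:99591028-99594829, the last 3 on the plus strand. Which exon each probe lies in was not analysed here. Because signals of Car6, Bhlha15 and Aqp5 were low in the same tumours (below), the 250 bases before each gene's start are shown for the motif of the factor class to which Bhlha15 belongs. Basic helix-loop-helix factors bind the E-box CANNTG, whose matches are in capitals, read 5′ to 3′ along the gene's own strand. The motif pattern is its own reverse complement, so each match counts for both strands.
Car6: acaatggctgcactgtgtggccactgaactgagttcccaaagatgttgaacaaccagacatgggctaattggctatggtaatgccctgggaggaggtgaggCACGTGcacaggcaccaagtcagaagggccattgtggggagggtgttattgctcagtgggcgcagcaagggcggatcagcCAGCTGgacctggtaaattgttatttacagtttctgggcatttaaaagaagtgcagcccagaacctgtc
Bhlha15: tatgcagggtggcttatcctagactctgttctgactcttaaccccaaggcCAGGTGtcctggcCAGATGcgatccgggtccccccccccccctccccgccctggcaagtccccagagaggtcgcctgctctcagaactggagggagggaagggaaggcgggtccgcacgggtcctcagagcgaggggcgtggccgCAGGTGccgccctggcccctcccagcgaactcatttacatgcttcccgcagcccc
Scgb1b27: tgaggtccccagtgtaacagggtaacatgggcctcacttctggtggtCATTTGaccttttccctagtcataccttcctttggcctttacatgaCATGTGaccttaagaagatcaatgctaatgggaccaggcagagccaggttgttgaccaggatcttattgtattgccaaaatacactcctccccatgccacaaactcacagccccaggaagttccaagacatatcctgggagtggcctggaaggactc
Aqp5: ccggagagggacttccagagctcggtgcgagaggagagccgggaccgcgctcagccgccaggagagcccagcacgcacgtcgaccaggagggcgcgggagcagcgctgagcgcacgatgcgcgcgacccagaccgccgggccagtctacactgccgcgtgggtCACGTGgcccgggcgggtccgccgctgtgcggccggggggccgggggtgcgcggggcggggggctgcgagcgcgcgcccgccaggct

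These windows are chr4:150201136-150201385 for Car6 (minus strand), chr5:144190036-144190285 for Bhlha15, chr7:34021231-34021480 for Scgb1b27 and chr15:99590778-99591027 for Aqp5. All 4 hold an E-box, as do 66.2% of the 32851 promoter windows of this length in the table. Bhlha15 holds 3 E-boxes, Car6 and Scgb1b27 hold 2 each, and Aqp5 holds 1. The form CATATG, which has been reported for Mist1, is in 0 of the 4 windows and in 3.46% of all windows. The windows differ widely in base composition. That of Aqp5 is 78.4% G or C with 38 CpG sites, that of Bhlha15 66.8% with 13, that of Car6 52.4% with 3, and that of Scgb1b27 49.2% with 0, against a median of 52.4% and 6 over all windows.

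The array values are given as normalized signals, on a linear scale recovered from the deposited ratios and brought to 1 distribution by quantile normalization. Array medians before that step lay between 15 and 23, so a signal below about 20 is near the floor of an array. Fold changes are differences of log2(signal + 16), SKI-606 minus vehicle, ± SE from limma with n = 4 in each group, and understate changes of dim genes. Levels of different probes are not comparable with each other. The luminal keratin genes Krt8 and Krt18 were bright in every tumour, with signals from 4839 to 6337 and from 5973 to 8146. Whether these signals came from mammary or other glandular epithelium was not tested. SKI-606 replicates 1 and 4 and vehicle replicate 3 stood apart by squamous keratin genes, with mean log2 levels of the 21 genes of squamous keratinization of 8.43, 8.51 and 8.27, against 5.10 to 5.82 in the other 5 tumours. Values without these 3 tumours are given beside each member below.

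Car6 had signals of 1197, 3616, 1074 and 2268 in vehicle replicates 1 to 4. In SKI-606 replicates 1 to 4 it had 37.4, 256, 1150 and 35.6. Vehicle tumours were thus all bright, while SKI-606 tumours ran from near the floor to the vehicle range, and the groups overlapped by SKI-606 replicate 3 alone, which lay above vehicle replicate 3. The group means were 2039 ± 1181 in vehicle and 370 ± 530 in SKI-606 tumours (SD, n = 4 each), and the log2 fold change was -3.40 ± 0.92. Without the 3 tumours of high squamous level it was -1.94, and it lay between -4.33 and -2.83 when any 1 tumour was left out. Without SKI-606 replicates 1 and 4, left out after their values were seen, it was -1.69.

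Bhlha15 followed a like order on both of its probes. On the brighter probe, vehicle replicates 1 to 4 had signals of 868, 1446, 1054 and 1053, and SKI-606 replicates 1 to 4 had 140, 347, 1118 and 54.1. The vehicle tumours were close to each other, with an SD of 0.30 on the log2 scale, whereas the SKI-606 tumours had an SD of 1.72. The log2 fold change was -2.09 ± 0.70, from group means of 1105 ± 244 and 415 ± 485 (SD, n = 4 each). It was -0.80 without the 3 tumours of high squamous level, -0.78 without SKI-606 replicates 1 and 4, left out after their values were seen, and between -2.80 and -1.46 when any 1 tumour was left out.

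The dimmer Bhlha15 probe ran from 13.4 in SKI-606 replicate 4 to 72.5 in vehicle replicate 2, close to the floor. It had vehicle signals of 39.8, 72.5, 44.4 and 38.0 and SKI-606 signals of 16.5, 33.1, 47.9 and 13.4, with a log2 fold change of -0.61 ± 0.27. With 1 or 64 added in place of 16 it was -0.91 or -0.30. The 2 probes put vehicle replicate 2 first, SKI-606 replicate 3 second and SKI-606 replicates 2, 1 and 4 last, and differed only in the order of vehicle replicates 1 and 4. Without the 3 tumours of high squamous level the value of the dimmer probe was -0.20.

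Scgb1b27 was high in 2 tumours and low in the rest. Its signals were 23.6, 7871, 159 and 6529 in vehicle replicates 1 to 4 and 14.5, 43.2, 224 and 16.5 in SKI-606 replicates 1 to 4. Vehicle replicates 2 and 4 were therefore far above all others, and vehicle replicates 1 and 3 lay within the SKI-606 range. From the lowest to the highest tumour, signal + 16 rose 259-fold. The log2 fold change was -3.66 ± 1.61, with group means of 3646 ± 4141 and 74.5 ± 100 (SD, n = 4 each), so the vehicle SD exceeded the vehicle mean. Leaving out 1 tumour at a time gave -5.09 to -2.54, and leaving out the 3 of high squamous level gave -3.41. Without vehicle replicates 2 and 4, left out after their values were seen, it was -0.44, so most of the difference rests on these 2 tumours. Near-identical copies of this gene exist in the mouse genome, and the probe may read more than 1 of them.

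Aqp5 was bright in every tumour and differed least of the members. Its signals were 3188, 4236, 1676 and 4592 in vehicle replicates 1 to 4 and 970, 3437, 5465 and 720 in SKI-606 replicates 1 to 4. The highest and the lowest tumour were both from SKI-606 mice, and the 3 lowest tumours were those of high squamous level. The means were 3423 ± 1308 in vehicle and 2648 ± 2243 in SKI-606 tumours (SD, n = 4 each), with a log2 fold change of -0.74 ± 0.62. Leaving out SKI-606 replicate 1, 3 or 4 alone gave -0.42, -1.24 or -0.28, and without the 3 tumours of high squamous level it turned to 0.13. Without SKI-606 replicates 1 and 4, left out after their values were seen, it was 0.44, so the direction of Aqp5 rests on those tumours.

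**Figure D1:**
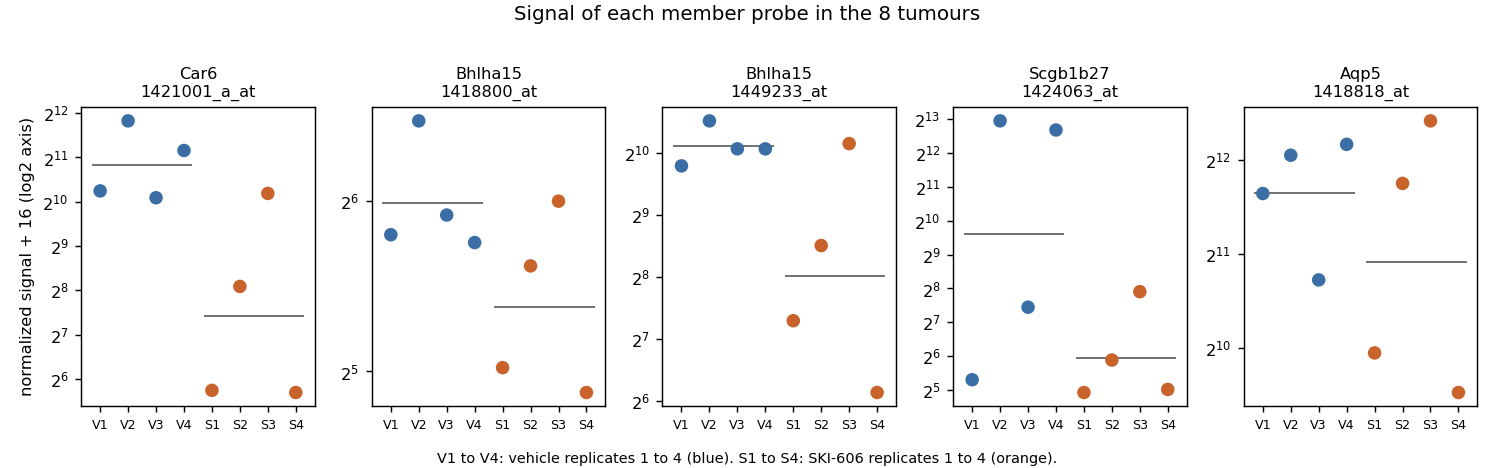
Normalized signal + 16 (log2 axis, a scale of its own in each panel) of the 5 member probes in vehicle (blue) and SKI-606 (orange) replicates 1 to 4; points are single tumours and lines are group means of the log2 values. SKI-606 replicates 1 and 4 are the 2 lowest points in all 5 panels, and vehicle replicates 2 and 4 stand alone at the top for Scgb1b27.

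SKI-606 replicates 1 and 4 were the 2 lowest tumours on all 5 member probes, and stayed so on the recovered signals without quantile normalization and on the deposited ratios. The log2 fold change was below 0 for 5 of 5 member probes. Over all probes limma called 0 of 45037, or 0%, at a Benjamini-Hochberg adjusted p under 0.05, with 3771 probes at an unadjusted p under 0.05, and 0 of 5 member probes were called, with adjusted p values from 0.528 to 0.776. The groups overlapped on each of the 5 probes. Nothing is read from these counts, since the same samples chose the genes. In bulk tumour RNA, fewer cells of a type and less RNA per cell cannot be told apart.

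The squamous list moved with part of this order. Krt6a, a keratin of stratified epithelium, had signals of 4162 and 4903 in SKI-606 replicates 1 and 4 and of 1577 in vehicle replicate 3, against 11.4 to 66.1 in the other 5 tumours. Aqp5 was lowest in these 3 tumours. Car6 and Bhlha15 were low in SKI-606 replicates 1 and 4, but in vehicle replicate 3 Bhlha15 was within the range of the other vehicle tumours and Car6 was 1074, against 1197 in vehicle replicate 1. SKI-606 replicate 2, with the lowest squamous level of all tumours, 5.10, had the third lowest Car6 and Bhlha15 signals. The part of squamous tissue in the member values was not tested beyond leaving out these tumours.

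The 10 myoepithelial genes, markers of the contractile basal cells of the gland, set apart the 2 tumours that were lowest on all member probes. Their mean log2 levels were 8.62 and 8.43 in SKI-606 replicates 1 and 4, against 6.93 to 7.43 in the other 6 tumours, vehicle replicate 3 included. Acta2, smooth muscle actin, had signals of 4051 and 3210 in these 2 tumours and of 622 to 1449 in the others. Krt14, a basal keratin, had 5265 and 5704 there, 2557 in vehicle replicate 3 and 290 to 1432 in the other 5. The part of myoepithelial cells in the member values was not tested.

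**Figure D2:**
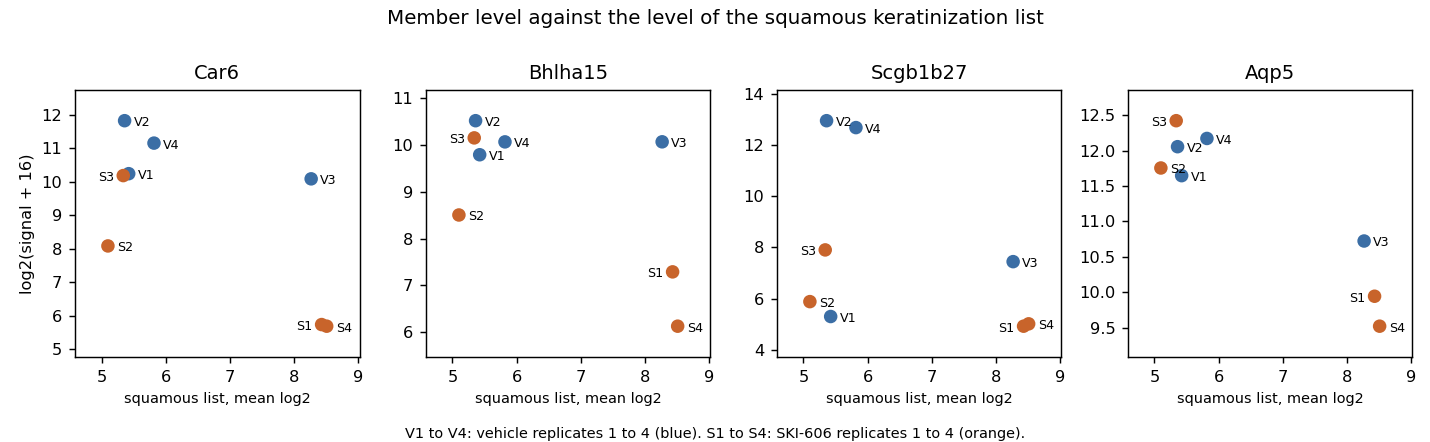
Log2(signal + 16) of each member (brighter Bhlha15 probe) against the mean log2 level of 21 squamous keratinization genes in the same tumour, for vehicle (V1 to V4, blue) and SKI-606 replicates (S1 to S4, orange). Aqp5 is lowest in the 3 tumours on the right, whereas vehicle replicate 3 (V3) keeps a Bhlha15 signal of 1054.

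Contents of muscle and fat also differed between tumours. The mean log2 level of 16 skeletal muscle genes ran from 4.92 to 10.19 in vehicle and from 4.84 to 9.73 in SKI-606 tumours, highest in vehicle replicate 1 and SKI-606 replicate 2. The 10 adipocyte genes ran from 6.04 to 7.77 and from 6.24 to 8.53. The 2 tumours richest in Scgb1b27, vehicle replicates 2 and 4, had low muscle levels of 4.92 and 5.68 and unlike adipocyte levels of 6.04 and 7.77. The 18 milk and alveolar genes stood at 8.81 in vehicle replicate 2, the lowest of all tumours, and at 9.76 in vehicle replicate 4. Whether these tissues had a part in the member values was not tested.

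Other secretory products of serous glands were examined as a list of 36 genes, of which 29 were measured and 16 reached a signal of 60 in any tumour. Log2 fold changes were above 0 in 13 of the 29 and below in 16, and their median was -0.08 against -0.02 over all 18193 genes, and limma called 0. At an unadjusted p under 0.05 there were 3 higher and 4 lower, where 6.07% and 4.31% of all genes were, or 10.4% in either direction. The lower 4 were Pip, Bpifa2, Egf and Spdef, and the higher 3 were Lyz1, Wfdc12 and Clu, all 7 named after their values were seen. Clu, clusterin, had every SKI-606 signal (4939 to 7434) above every vehicle signal (3283 to 3888), as did 2.39% of all genes. The highest signal lay in vehicle replicate 2 or 4, the tumours richest in Scgb1b27, in 14 of the 29 genes (48.3%) and in 28.0% of all genes. These tumours were picked by a member's own values, so nothing is read from this count. Of the 14 genes, Obp1a, Agr2, Bpifa2, Muc5b, Odam and Prpmp5 had no signal above 34.75. Lcn2 was counted although vehicle replicate 4 and SKI-606 replicate 2 both had 11597.

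Among the secretoglobins, Scgb2b27 encodes the partner subunit of the androgen-binding protein dimer and lies 7538 bases from Scgb1b27, at chr7:34011919-34013942. Its signals were 198, 5528, 529 and 4445 in vehicle replicates 1 to 4 and 50.9, 463, 1452 and 23.0 in SKI-606 replicates 1 to 4. As for Scgb1b27, vehicle replicates 2 and 4 were the 2 highest tumours and SKI-606 replicate 3 was the next, while SKI-606 replicates 1 and 4 were the lowest. Its log2 fold change was -2.65 ± 1.34 (adjusted p = 0.627 in limma). Scgb2b27 also has close copies in the genome.

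Pip, the prolactin-inducible protein of salivary, lacrimal and mammary secretions, had 347 and 290 in vehicle replicates 2 and 4 and at most 14.1 in the other 6 tumours. Its log2 fold change was -1.93 ± 0.85 (adjusted p = 0.591 in limma), and its dimmer probe stood at -0.50 with no signal above 22.4. Prol1, a proline-rich protein of lacrimal and submandibular glands, had 239 and 58.4 in the same 2 tumours and at most 25.2 in the others. In these 2 genes, as in the secretoglobin pair, the vehicle tumours divided into 2 high and 2 low ones. Vehicle replicates 2 and 4 were the 2 highest tumours for Scgb1b27, Scgb2b27 and Pip on all 3 scales tried. Which of the 2 was higher varied for Scgb1b27. Replicate 4 led on the recovered signals (8121 against 7467) and on the deposited ratios (94.1 against 91.6).

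Other products were high in other tumours. Dcpp1, a protein of demilune and parotid cells, was highest in SKI-606 replicate 3 at 376 and next in vehicle replicates 4 and 2 at 279 and 110. Mup5, a lipocalin of the major urinary protein family whose copies are near-identical, was 453 in vehicle replicate 2 and at most 22.0 elsewhere. Well-known salivary products were dim, with Amy1, salivary amylase, at most 27.6, Bpifa2, parotid secretory protein, at most 22.2, and Lpo, lactoperoxidase, at most 44.4. These 3 genes, and Mzb1 below, were named after their values were seen. Dcpp3, a relative of Dcpp1 also named after its values were seen, ran from 21.4 to 154, so products of serous glands differed in whether they were measured above the floor.

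**Figure D3:**
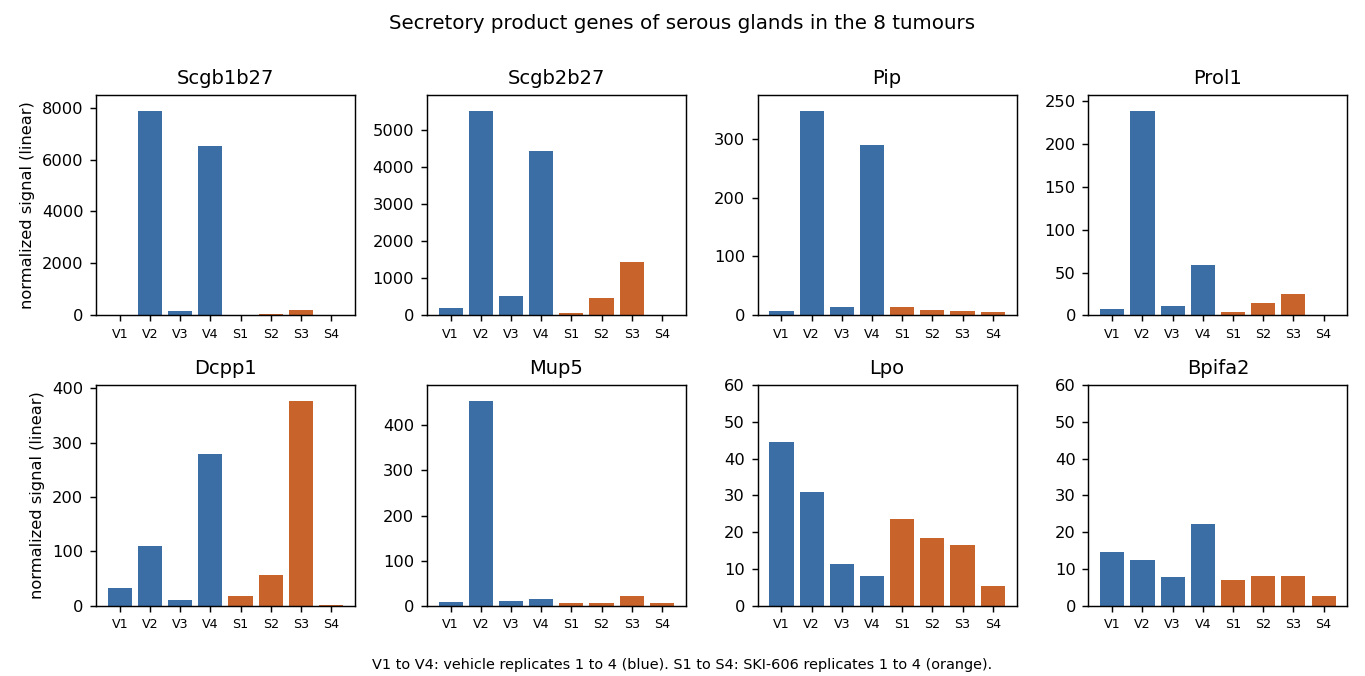
Normalized signal (linear axis from 0) of 8 secretory product genes in the 4 vehicle (blue) and 4 SKI-606 (orange) tumours; each bar is 1 tumour and each panel has its own scale. Scgb1b27, Scgb2b27, Pip and Prol1 are highest in vehicle replicates 2 and 4, Dcpp1 in SKI-606 replicate 3, and Lpo and Bpifa2 stay at or below 44.4.

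The other members of the 3 families had smaller fold changes than Car6 and Scgb1b27. Of the 24 secretoglobins listed, 6 were measured, and besides the pair above only Scgb1a1, the club cell protein of airways, passed a signal of 60, at 66.5 in SKI-606 replicate 1. All 16 carbonic anhydrases were measured, and of the 15 besides Car6, 9 stood above 0 and 6 below (median 0.05). Car12, a membrane-bound form, stood at -0.56 ± 0.36, the cytosolic Car2 at 0.12 ± 0.40, and the muscle and fat form Car3 at 0.40 ± 1.02. Of the other 11 aquaporins, 6 stood above 0 and 5 below (median 0.08). Aqp1, the water channel of vessel walls, stood at 0.93 ± 0.31, and Aqp3, a channel of stratified epithelium, at 0.70 ± 0.77, with its highest signals of 190, 94.2 and 80.9 in the 3 tumours of high squamous level, those in which Aqp5 was lowest. None of these relatives was called by limma over all probes, and 1 of 5 secretoglobins, 1 of 15 carbonic anhydrases and 2 of 11 aquaporins had an unadjusted p under 0.05, where 10.4% of all genes had.

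**Figure D4:**
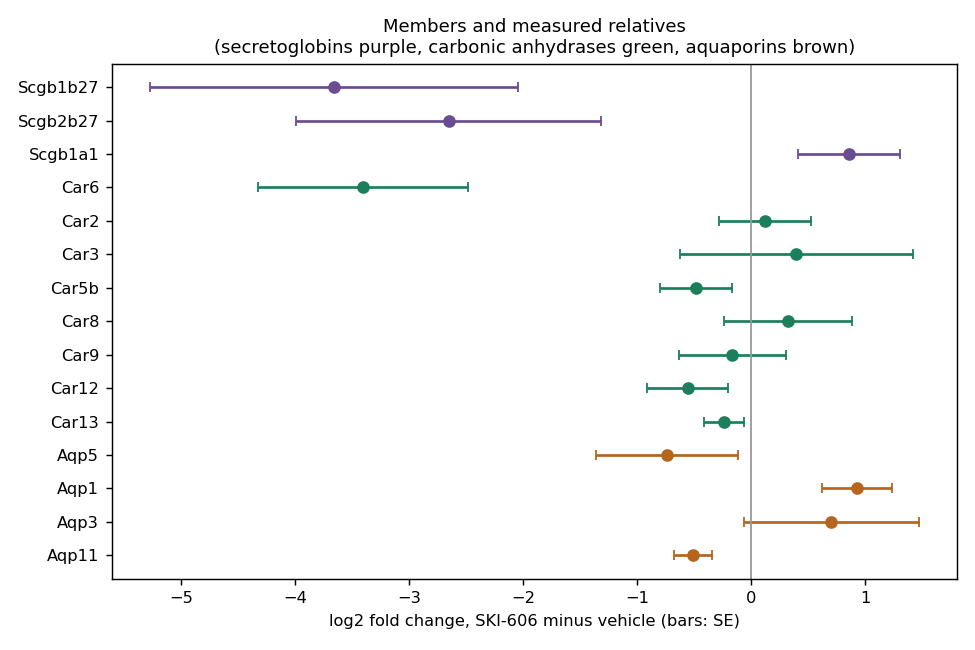
Log2 fold change, SKI-606 minus vehicle, with SE (bars, n = 4 in each group), of Scgb1b27, Car6, Aqp5 and those of their measured relatives whose signal passed 60 in any tumour. Car6 and the secretoglobin pair lie at -3.40, -3.66 and -2.65, while the other carbonic anhydrases lie between -0.56 and 0.40.

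Genes around Bhlha15 were examined next. Xbp1, the factor of the unfolded protein response that lies upstream of Bhlha15, was bright and even on its brightest probe. Signals there ran from 4313 to 5208, with a log2 fold change of -0.10 ± 0.12. Its 3 other probes stood at -0.15, -0.19 and -0.51, each lowest in SKI-606 replicate 4, and the dimmest ran from 39.5 to 161.5. Of the 8 genes listed with Bhlha15, 6 stood below 0 and 2 above (median -0.24), and limma called 0. Rab3d, a GTPase of secretory granules reported as a Mist1 target, stood at -0.54 ± 0.29, with SKI-606 replicates 4, 2 and 1 the lowest at 245, 316 and 371. Rab26, another reported target, was dim, from 25.6 to 35.8 in vehicle tumours, with 2.38, 4.88, 44.5 and 4.12 in SKI-606 replicates 1 to 4. Gjb1, a gap junction gene of acinar cells, had all SKI-606 signals (13.4 to 30.2) below all vehicle signals (37.5 to 54.8), and was named after its values were seen. Of all genes, 2.03% had groups apart in this direction.

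The 28 measured genes of the endoplasmic reticulum machinery had a median of -0.05, with 12 above 0 and 16 below, and limma called 0. At an unadjusted p under 0.05, 5 of the 28 were lower and 0 higher, where 4.31% and 6.07% of all genes were. Sec61a1, Sec61b, Ssr4, Spcs1 and Edem1, picked out here after their values were seen, had every SKI-606 signal below every vehicle signal, as did 2.03% of all genes. Sec11c, a signal peptidase subunit, stood at -0.81 ± 0.25, with vehicle signals of 820 to 1042 and SKI-606 signals of 343 to 824. The chaperone gene Calr was at 0.15 ± 0.13. The lowest signal lay in SKI-606 replicate 1 or 4 in 16 of the 28 genes (57.1%), compared with 33.3% of all genes. Those tumours were singled out by the member values, so nothing is read from this count.

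Of the 17 measured genes listed for acinar fluid secretion, 10 stood above 0 and 7 below (median 0.07). Kcnn4, a calcium-activated potassium channel, resembled Aqp5 in its low SKI-606 tumours, with 1159 and 878 in replicates 1 and 4 and 3446 and 3958 in replicates 2 and 3. In vehicle tumours Kcnn4 ran from 3580 to 4759, and its log2 fold change was -1.14 ± 0.45 (adjusted p = 0.575 in limma). Ano1, the apical chloride channel, was at 0.15 ± 0.24 and Slc12a2, the cotransporter that loads chloride, at -0.45 ± 0.42. Kcnn4, Ano1 and Slc12a2 were thus measured in all tumours. Trpv4, the gene of widest range in the list, stood at 1.17 ± 0.36, with signals of 3.12 to 35.0 in vehicle and 24.9 to 101 in SKI-606 tumours. Atp1b1 stood at 0.48 ± 0.43. None of these genes was called.

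Because Bhlha15 is also used by plasma cells, their markers were read in the same tumours. Jchain, the joining chain of secreted antibodies, had signals from 12.4 to 92.6, and Mzb1, a chaperone of plasma cells, from 11.4 to 38.4. Other genes of the list were brighter, with Sdc1 from 672 to 3366, Txndc5 from 671 to 1184 and Fkbp11 from 202.5 to 803. Of the 15 genes measured, 5 passed a signal of 60 in any tumour. The mean level of the 15 measured plasma cell list genes ran from 5.63 to 5.95 in vehicle and from 5.87 to 6.08 in SKI-606 tumours. Sdc1, the brightest of them, was highest in the 3 tumours of high squamous level. It had 2527 and 3366 in SKI-606 replicates 1 and 4 and 2187 in vehicle replicate 3. Whether plasma cells had a part in the Bhlha15 values was not tested. Markers of pancreatic acini (13 genes) and of lung epithelium (12 genes) had mean levels of at most 5.31 and 5.85 in any tumour. In these lists, 2 and 4 genes passed a signal of 60. Cel of the pancreatic list ran from 165 to 1387. Of the lung list, Pdpn ran from 143.5 to 718, Cyp2f2 from 121 to 380 and Sftpd from 3.0 to 265. The mean level of the 9 genes of salivary ducts ran from 5.44 to 6.30. Foxi1, the brightest of them, had signals from 600 to 1738. Klk1, the tissue kallikrein, ran from 41.8 to 103 on its brightest probe, and its 3 other probes had no signal above 21.5.

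Genes with the pattern most like each member were sought by Pearson's r over the 8 tumours, as a description with no test. For Car6 the nearest were 1500002F19Rik (r 0.987, Spearman's rho 0.976) and Il20rb, an interleukin receptor subunit (0.979 and 0.976). They were followed by Ercc8 (0.967 and 0.929), Phgdh (0.966 and 0.786) and Rims3 (0.963 and 0.905). 1500002F19Rik had signals of 203, 343, 173 and 332 in vehicle replicates 1 to 4 and 41.1, 121, 237 and 29.2 in SKI-606 replicates 1 to 4. Without SKI-606 replicates 1 and 4 its r over the 6 tumours left was 0.950.

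For Bhlha15 the nearest were Rfc5, a DNA clamp loader subunit (r 0.991, rho 0.976), and Phgdh, the first enzyme of serine synthesis (0.989 and 0.976). Next came Rims3 (0.985 and 0.857), Mrps5 (0.985 and 0.976) and Hapln4 (0.974 and 0.683), the last of which was dim. Phgdh had 932, 1394, 1171 and 1003 in vehicle and 318, 671, 1032 and 236 in SKI-606 replicates 1 to 4. Phgdh and Rims3 were on the lists of both Car6 and Bhlha15. For Aqp5 the nearest was Hey1, a target of Notch signalling (r 0.988, rho 0.952), with 414 in vehicle replicate 3, 299 and 179 in SKI-606 replicates 1 and 4, and 959 to 1292 in the other 5 tumours, followed by Echdc2, Atp23, Cct8l1 and Kyat3. For Scgb1b27 they were Cyp2j13, Top3b, Mtmr12, D030055H07Rik and Xkr4, with r from 0.955 to 0.982 and rho from 0.643 (Xkr4) to 0.934. Of these, Cyp2j13, D030055H07Rik and Xkr4 had no signal above 21.0, and Top3b ran only from 167 to 204.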

How the data were processed

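Labelled RNA of 8 tumours was read on Affymetrix arrays, and samples were grouped by their titles. The deposited values are linear ratios, and how the authors made them is not given in the sources used here. From the values, each signal had been divided by its array's median and then by its probe's median (26196 of 45101 probes) or a constant for dim probes, with a lowest ratio of 0.01. Whole-number signals recovered on this basis returned the deposited ratios of all 45101 probes. In a simulation of 5000 probes, 99.84% came back exactly. Signals were quantile normalized, 16 was added, log2 was taken, and limma 3.58.1 (R 4.3.3) was fitted to 45037 probes, leaving out 64 controls, adjusting p-values by Benjamini-Hochberg (threshold 0.05). limma was tested on simulated data.

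A gene was represented by its brightest probe with 1 symbol in the platform annotation. Promoter windows are RefSeq sequences of GRCm38.p6, matched by symbol for 4 of 4 members. The members and the gene lists were chosen with earlier results of these data known. Genes to name were all member probes, the 5 genes most like each member and members of the 3 families. From each list, the 4 of widest range and the 2 brightest were added. Not all of these genes are described above, and some others were named after their values were seen. Depth has no count here, and the number of arrays limits precision.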

Additional observations from a re-analysis of the deposited data

Results flagged for a closer look

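Within groups of 4 tumours, Dixon's ratio (the gap of the outermost value to its neighbour over the whole range, on the log2 scale) was computed for the members and the named genes of the gland lists wherever a group's highest signal reached 60, in 69 groups. It passed the critical value for 4 samples in 5 of them, where chance gives about 1 in 20, and in none of the member probes. Mup5 in vehicle tumours had a ratio of 0.909, since replicate 2 stood above the others. Rab3d in vehicle tumours had 0.845, with replicate 2 high at 774. On its 3 other probes replicate 2 had 211.4, 317.5 and 34.75, where the highest of the other vehicle tumours had 209.8, 309.2 and 50.25. Car9, the hypoxia-linked carbonic anhydrase, had 0.834 in vehicle tumours, with replicate 1 low at 44.4. Ano1 had 0.842 in vehicle tumours, with replicate 3 low at 1451. On its other probe vehicle replicate 2 was the lowest of these tumours at 440.6, and replicate 3 had 466.1. Calr had 0.902 in SKI-606 tumours, with replicate 1 at 5157 against 4866 to 4893 in the others, a small gap. On its 2 other probes SKI-606 replicate 2 was highest, at 5067 and 4195.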

How the results depend on the processing

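limma called 0 probes under every alternative run, while 1770 to 4922 had an unadjusted p below 0.05. Of 91 member values under alternatives, 89 stayed below 0, and 5 moved by more than 1 SD between replicates. These counts include the replicate block and a filter that left out dim probes, under which a member's value cannot change. Without the 3 tumours of high squamous level, the brighter Bhlha15 probe moved to -0.80, and Aqp5 stood above 0 at 0.13. Of the alternatives chosen after seeing the data, leaving out SKI-606 replicates 1 and 4 gave -1.69 for Car6, -0.78 for Bhlha15 and 0.44 for Aqp5, and leaving out vehicle replicates 2 and 4 gave -0.44 for Scgb1b27. These pairs were picked by the member values themselves, so the values describe how far the differences rest on them.

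Leaving out each tumour in turn gave -4.33 to -2.83 for Car6, -2.80 to -1.46 and -0.81 to -0.44 for the Bhlha15 probes, -5.09 to -2.54 for Scgb1b27 and -1.24 to -0.28 for Aqp5. With the replicate number as a block, 0 probes were called, with 3855 at an unadjusted p under 0.05. The member values of -3.40, -2.09, -0.61, -3.66 and -0.74 cannot change under this block, since both groups hold the same replicate numbers. Same-numbered samples had correlated deviations of -0.15 to 0.108, so the numbers were not taken to pair them. On the log2 scale of the deposited ratios the median of all genes moved from -0.02 to 0.16, and Aqp5 stood at -0.55. Signals near the floor limit what can be said of Bpifa2, Amy1 and the dimmer probes.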
